A study of Mus musculus with 12 samples.

Results

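Transcripts of the multiligand receptors megalin and cubilin and of the proteins they work with were followed through 5 days of ureteral obstruction in wild type and Sprr2f knockout (KO) mouse kidneys. The members are the rows of the deposited table whose gene symbol is Lrp2, Cubn, Amn, Dab2, Clcn5 or Lrpap1, 6 of 55471 genes, and all 6 passed the filter on low values. RNA came from left kidneys of C57/BL6 mice in 4 groups: wild type at day 0 (n = 2) and day 5 (n = 3), and Sprr2f KO at day 0 (n = 4) and day 5 (n = 3). Day 5 kidneys had a microvascular clamp on the left ureter (unilateral ureteral obstruction, UUO). The treatment label reads UUO for the day 0 kidneys too, and the labels do not say whether those were sham-operated. The protocol names Sprr2f-KO mice of 8 to 12 weeks and gives no age for the wild type mice. It says nothing of how the knockout was made or whether animals were pooled. Replicates are described only as separate samples, so the p-values below reflect how these samples vary, which may be technical.

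Cells of the proximal tubule take up filtered albumin, vitamin carriers, hormones and enzymes from the tubular fluid at their apical membrane. Lrp2 encodes megalin, a very large receptor of the low-density lipoprotein (LDL) receptor family, and Cubn encodes cubilin, which has no membrane span and is brought to the surface by amnionless, the product of Amn. Dab2 is an adaptor that binds the megalin tail and links it to clathrin, Clcn5 encodes a chloride/proton exchanger of the endosomes, and Lrpap1 encodes RAP, a chaperone that keeps newly made megalin from binding ligands too early. Loss of CLCN5 in people causes Dent disease, and loss of CUBN or AMN causes Imerslund-Grasbeck syndrome, both with protein in the urine.

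Each library held 16567256 to 19398882 reads counted to genes, and a member had 1355 to 42186 reads in a library, which gives a counting error of 2.72% to 0.487%. Values below are scaled CPM, counts per 1000000 reads (CPM) divided by a trimmed-mean (TMM) factor, unless another scale is named. The factors ran from 0.795 to 0.897 in day 0 libraries and from 1.13 to 1.19 in day 5 libraries, and reads of mitochondrially encoded genes were 8.31% to 9.26% and 3.89% to 4.34% of the libraries. Scaling by library size alone would raise every log2 fold change of obstruction by a median of 0.41 in wild type and 0.44 in knockout, so the fold changes below are relative to the TMM factors. The series title names female mice, yet 7 of 12 libraries held Y-linked transcripts (112 to 170 CPM over 4 genes, against 0.281 to 0.979 CPM in the 5 others, which held Xist). They were 1 of 2, 1 of 3, 4 of 4 and 1 of 3 libraries in the groups as listed above. Sprr2f itself, the gene that the knockout label names, had 26.9 to 58.8 CPM in wild type day 5 libraries and 0 to 4.07 CPM in knockout day 5 libraries, without overlap. Knockout day 5 replicates 2 and 3 still held 39 and 76 reads of Sprr2f. At day 0 it had at most 5 reads in a library of either genotype, so it does not check the genotype labels there. The comparisons of Lrp2 and Cubn are given with this pattern of Y-linked and Xist transcripts as a covariate or within it as well.

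All 6 genes lie on the reference chromosomes of GRCm38 (GENCODE M21) and are protein-coding. Lrp2 (ENSMUSG00000027070) spans chromosome 2, 69424340 to 69586065, minus strand, with 80 merged exon blocks, and Cubn (ENSMUSG00000026726) spans 13276338 to 13491813 on the same chromosome and strand, with 66. Amn (ENSMUSG00000021278) is on chromosome 12, 111271095 to 111276426, plus strand, and Dab2 (ENSMUSG00000022150) on chromosome 15, 6299788 to 6440712, plus strand. Clcn5 (ENSMUSG00000004317) is on chromosome X, 7153810 to 7319358, minus strand, and Lrpap1 (ENSMUSG00000029103) on chromosome 5, 35091501 to 35105766, minus strand. No 50-base stretch of the Lrp2, Amn, Clcn5 or Lrpap1 transcripts occurs in the transcripts of another gene. For Cubn 1.85% of these stretches also occur in the opposite-strand transcript Gm13270 (at most 17 reads in a library) and for Dab2 2.14% in the pseudogene Gm18888 (at most 4 reads), so other genes could have touched few of the members' reads.

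The promoters of the receptor genes are printed because Lrp2 and Cubn followed each other most closely among the members, while Amn followed them least within groups. Each sequence runs 5′ to 3′ from 250 bases before to 50 bases after the RefSeq start site in GRCm38.p6. Capitals mark the 5 motifs searched on both strands, none of which contains another. They are GTTAA, the first bases of the HNF1 site, then CAAAG, the core of the HNF4 site, then GGGCGG, known as the GC box, then TATAAA, the core of the classical promoter element of that name, and CACGTG, an E-box.
Lrp2, chr2:69585980-69586279, minus strand: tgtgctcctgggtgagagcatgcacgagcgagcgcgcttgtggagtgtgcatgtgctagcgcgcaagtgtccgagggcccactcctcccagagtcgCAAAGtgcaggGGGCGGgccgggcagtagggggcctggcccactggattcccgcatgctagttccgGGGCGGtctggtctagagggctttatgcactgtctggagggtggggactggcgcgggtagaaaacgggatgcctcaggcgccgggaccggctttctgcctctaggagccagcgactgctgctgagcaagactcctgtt
Cubn, chr2:13491827-13492126, minus strand: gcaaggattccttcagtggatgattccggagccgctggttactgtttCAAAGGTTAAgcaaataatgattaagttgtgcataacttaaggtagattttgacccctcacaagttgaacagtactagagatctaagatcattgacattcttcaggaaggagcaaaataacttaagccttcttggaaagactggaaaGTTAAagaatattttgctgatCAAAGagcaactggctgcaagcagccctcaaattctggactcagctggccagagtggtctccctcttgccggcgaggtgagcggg
Amn, chr12:111270846-111271145, plus strand: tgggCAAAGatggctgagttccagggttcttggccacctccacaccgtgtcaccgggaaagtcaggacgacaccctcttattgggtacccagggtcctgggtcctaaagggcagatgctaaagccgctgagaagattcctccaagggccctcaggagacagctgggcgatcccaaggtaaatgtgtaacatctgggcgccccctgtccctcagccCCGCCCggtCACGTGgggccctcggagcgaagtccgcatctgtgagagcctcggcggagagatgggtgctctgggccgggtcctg
The Lrp2 promoter had 65.0% G and C with 20 CpG, 2 GC boxes, 1 CAAAG and no GTTAA. The Cubn promoter had 44.3% G and C with 5 CpG, 2 GTTAA, 2 CAAAG and no GC box. The Amn promoter had 62.3% G and C with 15 CpG, 1 GC box, 1 CAAAG and 1 E-box. Over all 32851 promoters of this length, the median was 52.7% G and C and 7 CpG, and the motif was present in 24.2% (GTTAA), 53.9% (CAAAG), 35.7% (GC box), 13.6% (TATAAA) and 7.15% (E-box). In Cubn a CAAAG match and a GTTAA match lie side by side. Lrp2 and Cubn thus had unlike promoters by base composition and by these letters, and none of the 3 held TATAAA. A match is a description of letters only.

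The first comparison asks what 5 days of obstruction did to these transcripts in wild type kidneys. All 6 were lower at day 5 than at day 0, and in each of them every day 5 library lay below every day 0 library. At an adjusted p under 0.05 (limma over 18093 genes, Benjamini-Hochberg), 6 of 6 fell, where 22.6% of all tested genes were called lower. For the lack of overlap, the share over all tested genes was 30.7%. The median log2 fold change of the members was -1.43, against 0.04 over all tested genes. In these bulk samples, fewer cells of a type and less RNA per cell cannot be told apart.

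**Figure D1:**
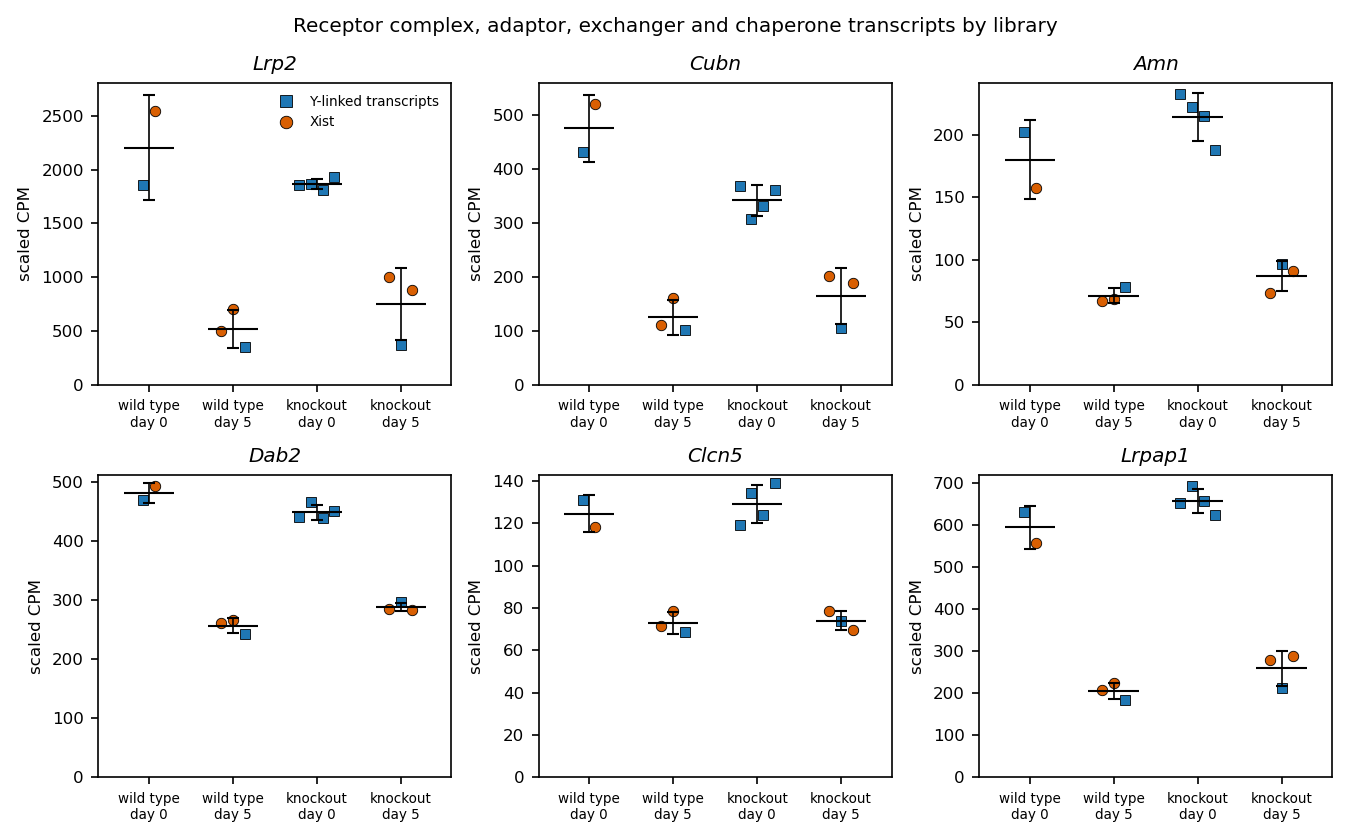
Scaled CPM (y axis, from 0) of the 6 genes in each of the 12 libraries by group (x axis); squares are libraries with Y-linked transcripts, circles libraries with Xist, horizontal lines group means and bars 1 SD. In every panel the day 5 libraries lie below the day 0 libraries of the same genotype, and the Lrp2 values at day 5 spread from 349 to 1002.

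Lrp2, the receptor itself, stood at 1858 and 2550 scaled CPM in the wild type libraries at day 0 and at 499, 704 and 349 at day 5. The lowest day 0 value was thus well above the highest day 5 value, though the day 5 libraries differed among themselves, with a coefficient of variation of 34.5% (25.5% for Cubn and 4.93% to 9.74% for the 4 other members). Its log2 fold change was -2.13 ± 0.36 (SE), 22.8% of the starting level (adjusted p = 0.000373). Only 1.04% of the tested genes had a lower log2 fold change in this comparison.

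Cubn had 432 and 520 scaled CPM at day 0 and 111, 161 and 102 at day 5. The order of the 5 libraries was the same as for Lrp2. It fell by 1.95 on the log2 scale (SE 0.25, adjusted p = 3.47e-05), to 25.9% of its day 0 level.

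Amn, whose product carries cubilin to the surface, was at 202 and 158 scaled CPM at day 0 and at 67.0, 68.3 and 77.9 at day 5. Here the day 0 library that was lower for Lrp2 and Cubn was the higher one, and the day 5 library that was lowest for those was the highest. The log2 fold change was -1.33 ± 0.14 (SE, adjusted p = 7.39e-06), which leaves 39.9% of the day 0 level, more than remained of Lrp2 or Cubn. Within libraries, however, the ratios of Amn to Lrp2 and to Cubn overlapped between the days. Amn per Lrp2, both per kilobase of exon, was 0.987 and 0.560 at day 0 and 1.22, 0.879 and 2.02 at day 5. In knockout Amn fell more than Cubn (-1.30 against -1.10).

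Lrpap1, the receptor chaperone, went from 631 and 557 scaled CPM to 207, 224 and 184, a log2 fold change of -1.53 ± 0.13 (SE, adjusted p = 1.47e-06). Among the 4 genes of the receptor complex and its folding, it lay between Cubn and Amn in the size of its fall.

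The adaptor and the exchanger fell least. Dab2 was at 470 and 495 scaled CPM at day 0 and at 261, 267 and 243 at day 5 (log2 fold change -0.91 ± 0.08, SE, adjusted p = 1.69e-06). Clcn5 was at 131 and 118 scaled CPM and then at 71.6, 78.7 and 68.6 (-0.77 ± 0.10, SE, adjusted p = 3e-05). Both retained over 50% of their level, 53.3% for Dab2 and 58.7% for Clcn5, with narrow groups: the SD at day 5 was 12.7 for Dab2 and 5.20 for Clcn5. With library size alone these changes were -0.49 and -0.35 (adjusted p = 0.000202 and 0.0104), still called and still lower, but smaller than the TMM values by over 1.5 times.

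The second comparison asks for the same change in Sprr2f KO kidneys, day 5 (n = 3) against day 0 (n = 4). Again 6 of 6 were called lower (25.4% of all tested genes were) with no overlap between the days (25.6% of all tested genes), and the median log2 fold change was -1.20 against 0.07 over all tested genes. The differences between genotypes are tested further on.

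Lrp2 ranged from 1811 to 1927 scaled CPM over the 4 knockout libraries at day 0 (mean 1867 ± 47.4, SD) and stood at 1002, 369 and 876 at day 5. A single day 5 library was low, and it is the one of the 3 with Y-linked transcripts. The log2 fold change was -1.44 ± 0.30 (SE, adjusted p = 0.00143), and -0.99 without that library (knockout day 5 replicate 2). The -0.99 sets Xist libraries at day 5 against Y-linked libraries at day 0, so day and pattern cannot be told apart in it. Cubn behaved alike, with 307 to 368 scaled CPM at day 0 and 201, 105 and 188 at day 5 (-1.10 ± 0.21, SE, adjusted p = 0.000612).

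Amn ranged from 188 to 232 scaled CPM at day 0 and stood at 73.4, 96.8 and 90.9 at day 5 (-1.30 ± 0.12, SE, adjusted p = 1.36e-06). The library with the lowest Lrp2 had the highest Amn of the 3. Lrpap1 ranged from 625 to 693 scaled CPM and then stood at 278, 212 and 288 (-1.35 ± 0.11, SE, adjusted p = 5.99e-07), with the same low library as the receptors.

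Dab2 ranged from 439 to 466 scaled CPM at day 0 and stood at 286, 297 and 284 at day 5 (-0.64 ± 0.07, SE, adjusted p = 4.89e-06). Clcn5 ranged from 119 to 139 scaled CPM and stood at 78.4, 73.8 and 69.6 (-0.80 ± 0.08, SE, adjusted p = 3.55e-06). Neither followed the low library of the receptors. Scaled by library size alone they were at -0.19 and -0.35 (adjusted p = 0.0239 and 0.00282), and Amn, Lrpap1 and Cubn at -0.85, -0.90 and -0.65. All 6 stayed called and lower with that scaling in both genotypes. Over all tested genes it called 11.1% lower in wild type and 12.0% in knockout.

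**Figure D2:**
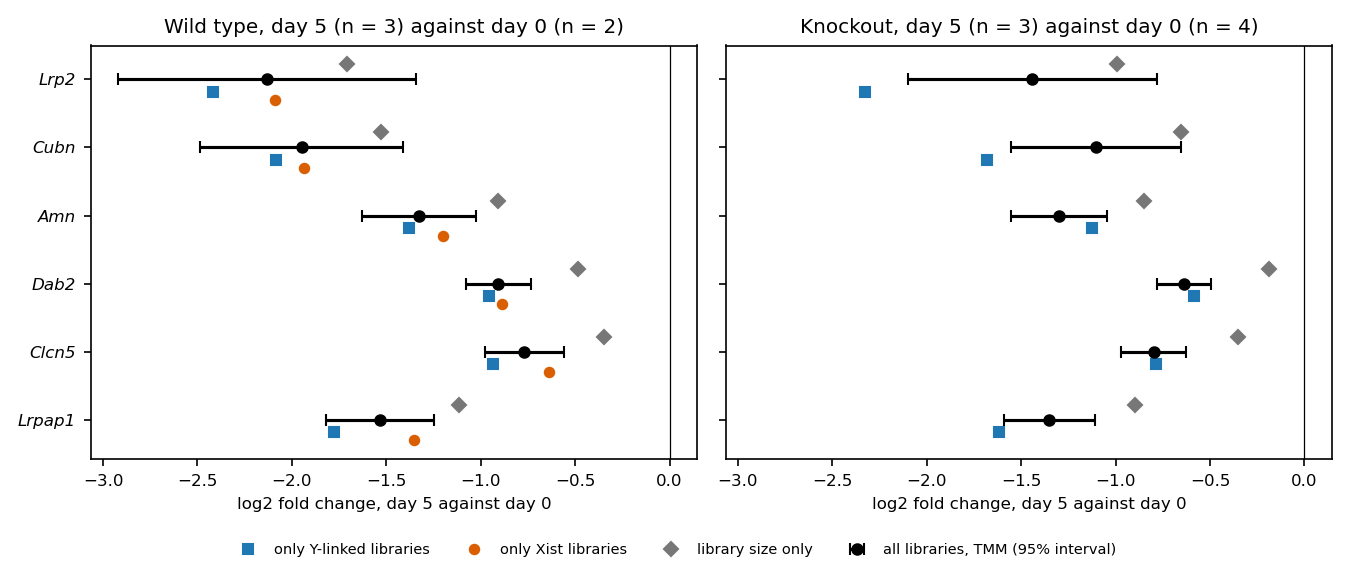
Log2 fold change at day 5 against day 0 (x axis) of the 6 genes (y axis) in wild type (left) and knockout (right); black points with bars are all libraries with the 95% interval, squares and circles the fits within Y-linked and within Xist libraries, and diamonds the scaling by library size alone. All points lie below 0, and Lrp2 within Y-linked libraries stands at -2.42 in wild type and -2.33 in knockout.

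The spread of Lrp2 and Cubn at day 5 moved with the sex-chromosome pattern of the libraries. At day 5 the Y-linked libraries held 349 and 369 scaled CPM of Lrp2 and the 4 Xist libraries 499 to 1002. At day 0 the 5 Y-linked libraries held 1811 to 1927 and the Xist library 2550. A term for the pattern added to the 4 groups was -0.89 ± 0.15 log2 units for Lrp2 (SE, limma adjusted p = 0.00236) and -0.54 ± 0.13 for Cubn (adjusted p = 0.0221), both lower in Y-linked libraries, where 7.94% of all tested genes were called in either direction and 4.41% lower. Within the day 5 libraries alone these were -1.04 (adjusted p = 0.0121) and -0.63 (adjusted p = 0.0547, not called). The term was not called for Amn (0.26 ± 0.08, adjusted p = 0.0778), Lrpap1 (-0.18 ± 0.09, 0.231), Dab2 (-0.04 ± 0.06, 0.71) or the X-linked Clcn5 (-0.01 ± 0.08, 0.963). Within day 5 it was -0.31 ± 0.08 for Lrpap1 (limma adjusted p = 0.0632) and 0.23 ± 0.09 for Amn (0.173). Dab2 stood at -0.02 and Clcn5 at -0.05 there, and none of these was called. Since the groups hold unequal numbers of each pattern, the obstruction changes were also taken within patterns. In Y-linked libraries alone, Lrp2 changed by -2.42 in wild type (1 library against 1) and by -2.33 in knockout (1 against 4), the latter over 1.5 times the value from all libraries. Cubn changed by -2.08 and -1.68. In Xist libraries alone (wild type, 2 against 1) they changed by -2.09 and -1.94. With the pattern as a covariate, the knockout changes were -2.04 for Lrp2 and -1.46 for Cubn.

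Knockout and wild type were compared at each day, the question being whether these transcripts differed with genotype. At day 0 none of the 6 was called, and 0.0166% of all tested genes were. The differences, knockout minus wild type in log2 units with 95% intervals, were -0.22 for Lrp2 (-0.97 to 0.53), -0.47 for Cubn (-0.98 to 0.04), 0.26 for Amn (-0.03 to 0.54), -0.10 for Dab2 (-0.27 to 0.06), 0.05 for Clcn5 (-0.15 to 0.25) and 0.15 for Lrpap1 (-0.12 to 0.42). These intervals leave room for sizeable differences in the receptors and little for Dab2 and Clcn5. In Cubn (307 to 368 against 432 and 520 scaled CPM) and Dab2 (439 to 466 against 470 and 495) all 4 knockout libraries lay below both wild type ones, a lack of overlap in the lower direction that 12.4% of all tested genes showed. Their adjusted p-values were 0.362 and 0.555. With the sex-chromosome pattern as a covariate the day 0 values were 0.22 for Lrp2, turned in sign, -0.21 for Cubn, 0.13 for Amn and 0.24 for Lrpap1. Within the Y-linked libraries (4 against 1) they were -0.0015, -0.35, 0.07 and 0.05. Leaving out wild type replicate 1 or 2 put Lrp2 at -0.44 or 0.02 and Amn at 0.44 or 0.09, so the sign of Lrp2 and the size of both rested on which wild type library was kept. Clcn5 turned to -0.02 with library size alone and to -0.03 within the Y-linked libraries.

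At day 5 none was called either, in a comparison with no called gene (limma; 0% of all tested genes). At an unadjusted p under 0.05, 1025 genes passed (5.67%, with 3.58% higher in knockout). On the recovered reads edgeR called 0 genes and DESeq2 2 lower and 49 higher, none of them a member. All 6 values were above 0 on the knockout minus wild type scale: 0.47 for Lrp2 (-0.24 to 1.17), 0.37 for Cubn (-0.11 to 0.85), 0.28 for Amn (0.01 to 0.55), 0.17 for Dab2 (0.01 to 0.32), 0.02 for Clcn5 (-0.17 to 0.21) and 0.33 for Lrpap1 (0.07 to 0.59). Amn, Dab2 and Lrpap1 had unadjusted p-values of 0.0407, 0.0346 and 0.0154 and adjusted p-values of 0.867, 0.867 and 0.834. For Dab2 the 3 knockout libraries (284 to 297 scaled CPM) did not overlap the 3 wild type ones (243 to 267), which 5.72% of tested genes showed in this direction, while the groups overlapped for the 5 others. At this day each genotype had 1 Y-linked and 2 Xist libraries, so adding the pattern as a covariate could not change these differences. Within the Y-linked pair Lrp2 differed by 0.09, Cubn by 0.05 and Dab2 by 0.30, and within the Xist libraries by 0.65, 0.53 and 0.10. Clcn5 turned in sign within the Xist libraries (-0.03) and with library size alone (-0.02). Without knockout replicate 1 the Lrp2 and Cubn differences were 0.19 and 0.20, and without knockout replicate 2, the low library, 0.91 and 0.66.

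The difference in the obstruction change between genotypes was not called for any of the 6, and 0.00553% of tested genes were called (7.59% at an unadjusted p under 0.05). It was 0.69 ± 0.47 (SE) log2 units for Lrp2 (adjusted p = 0.75) and 0.85 ± 0.32 for Cubn (unadjusted p = 0.0217, adjusted p = 0.619). For Dab2 it was 0.27 ± 0.10 (unadjusted p = 0.0218, adjusted p = 0.619). With the sex-chromosome pattern as a covariate the Lrp2 value was 0.24 and the Cubn value 0.58, and within Y-linked libraries they were 0.09 and 0.40. Leaving out 1 library moved Lrp2 between 0.41 (without knockout day 5 replicate 1) and 1.14 (without knockout day 5 replicate 2), and Cubn between 0.67 and 1.14 without the same libraries. Values for Amn, Clcn5 and Lrpap1 were 0.03, -0.03 and 0.18. Amn was at -0.17 without wild type day 0 replicate 1 and at 0.19 without replicate 2, and Lrpap1 ran from 0.07 (without wild type day 0 replicate 1) to 0.32 (without knockout day 5 replicate 2).

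Levels of different genes were compared per kilobase of annotated exon, an approximate scale because not every annotated exon need be used. Wild type kidneys at day 0 had, for Lrpap1, 144 ± 12.6 scaled CPM per kilobase (SD), for Lrp2 132 ± 29.3, for Amn 97.7 ± 17.2, for Dab2 65.7 ± 2.33, for Cubn 31.9 ± 4.17 and for Clcn5 10.9 ± 0.773. The libraries of Lrpap1 and Lrp2 overlapped, and the lowest Lrp2 library (111) was close to the highest Amn library (109.8), so these neighbours were not apart beyond their spread. In knockout at day 0 the order was Lrpap1 (159 ± 6.85), Amn (116 ± 10.3), Lrp2 (112 ± 2.84), Dab2 (61.2 ± 1.71), Cubn (22.9 ± 1.91) and Clcn5 (11.3 ± 0.802), and the Amn and Lrp2 libraries overlapped. The amnionless transcript was thus more abundant than that of its partner cubilin in every library, 2.46 to 5.87 times per kilobase at day 0 and 2.96 to 7.47 times at day 5. In wild type at day 5 the order was Lrpap1 (49.8 ± 4.85), Amn (38.6 ± 3.22), Dab2 (35.0 ± 1.73), Lrp2 (31.0 ± 10.7), Cubn (8.36 ± 2.13) and Clcn5 (6.37 ± 0.454), where the libraries of Amn, Dab2 and Lrp2 overlapped one another, and Cubn overlapped Clcn5. In knockout at day 5 it was Lrpap1 (63.0 ± 10.01), Amn (47.2 ± 6.61), Lrp2 (44.8 ± 20.1), Dab2 (39.3 ± 0.932), Cubn (11.03 ± 3.48) and Clcn5 (6.46 ± 0.385), and the first 3 overlapped one another, as did Dab2 with both Amn and Lrp2. The receptor transcript stood above that of its adaptor in each of the 6 day 0 libraries and in 3 of the 6 day 5 libraries.

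Ratios within a library do not depend on the scaling factor. Dab2 per Lrp2, both per kilobase, started at 0.576 and 0.441 in wild type and reached 1.19, 0.863 and 1.58 after obstruction. In knockout it was 0.532 to 0.5682 and then 0.648, 1.83 and 0.737. The 4 knockout day 0 libraries were all Y-linked, as was the day 5 library at 1.83, while those at 0.648 and 0.737 held Xist. Ratios to Lrp2 thus carry its difference between the patterns. Clcn5 per Lrp2 was 0.0677 to 0.105 over all day 0 libraries and 0.114 to 0.292 over the day 5 libraries. In each genotype every day 5 library had the higher value of both ratios. Cubn per Lrp2 was 0.260 and 0.228 in the wild type day 0 libraries and 0.250, 0.256 and 0.327 after obstruction, which overlap. In knockout it was 0.184 to 0.221 and then 0.224, 0.319 and 0.240, just above the day 0 libraries.

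The proximal tubule as a whole lost transcripts, and the members were set beside it. Of 16 proximal tubule genes, 16 fell in wild type and 14 in knockout (medians -2.51 and -1.56), and 15 and 13 with library size alone, where 1 was higher in knockout. With the sex-chromosome pattern as a covariate 16 fell in wild type and 15 in knockout, and the medians were closer (-2.49 and -2.13). The summed level of the 16 genes was 19862 to 22294 scaled CPM in wild type at day 0 and 4248 to 4899 at day 5, and 19460 to 23132 and 4840 to 7561 in knockout. None of the 16 was at 0 in a group. Per 1000 scaled CPM of this sum, Lrp2 stood at 93.5 and 114 before and at 111, 144 and 82.1 after obstruction in wild type, and at 80.7 to 99.0 and then 150.2, 76.1 and 116 in knockout. Lrp2 therefore overlapped between the days in both genotypes on this scale. Within Y-linked libraries it did not, with 93.5 and then 82.1 in wild type and 80.7 to 99.0 and then 76.1 in knockout. Each of these day 5 values is 1 library. The Xist libraries of wild type held 114 at day 0 and 111 and 144 at day 5. Dab2 went from 22.2 to 23.7 in wild type at day 0 to 54.5 to 58.1 at day 5, and from 20.2 to 23.2 to 37.6 to 61.3 in knockout. Clcn5 went from 5.31 to 6.59 to 15.9 to 16.1 in wild type, and from 5.80 to 7.15 to 9.20 to 15.3 in knockout. Lrpap1 was 25.0 to 31.7 and then 43.3 to 46.0 in wild type, and 30.0 to 33.1 and then 38.1 to 43.8 in knockout. These 3 were above the day 0 libraries at day 5 in both genotypes, so they fell less than the marker sum did. The same held for Cubn (21.7 to 23.3 and then 24.0 to 32.9 in wild type, 13.3 to 18.7 and then 21.7 to 30.1 in knockout). Amn was apart in wild type (7.07 to 10.2 and then 13.9 to 18.3) and overlapped in knockout (9.60 to 11.8 and then 11.01 to 20.005).

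**Figure D3:**
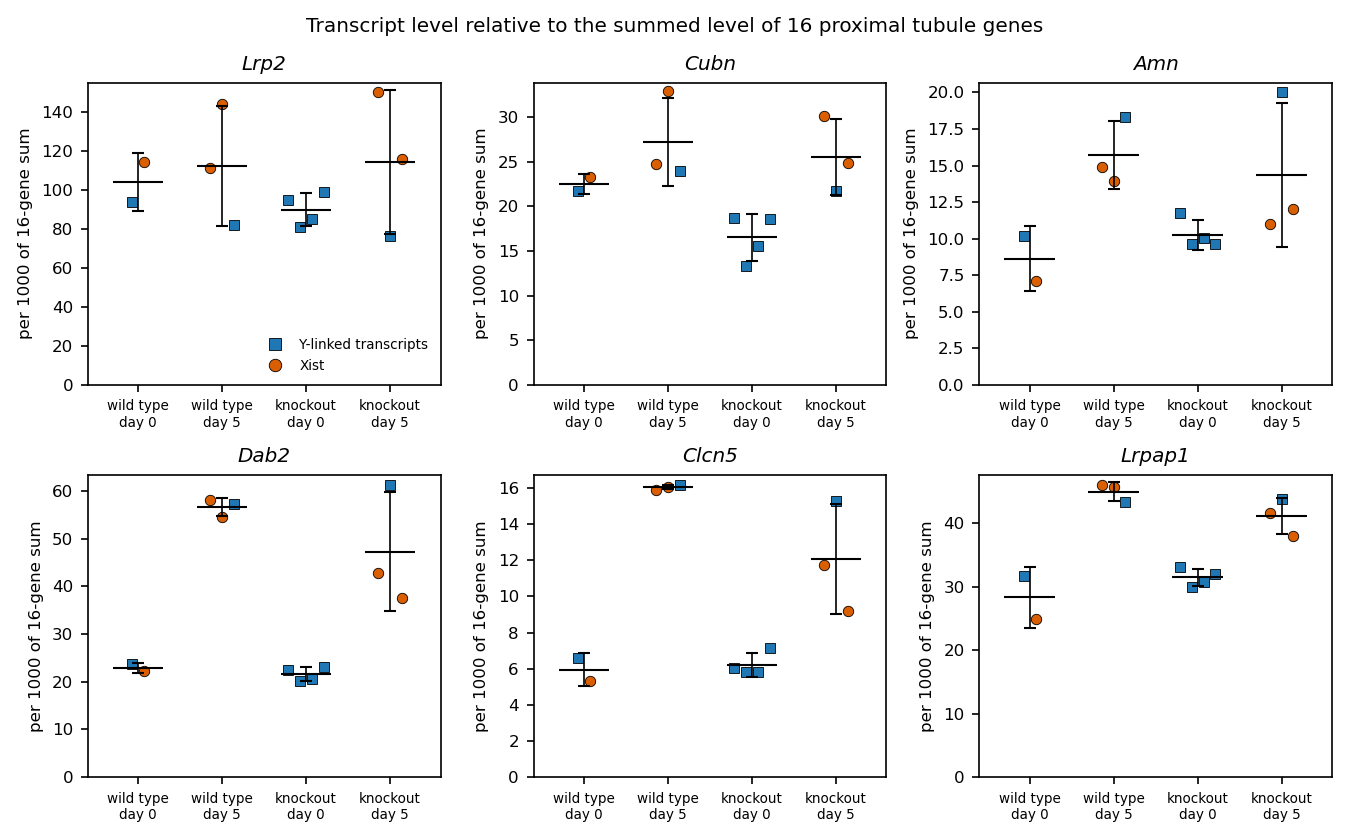
Each transcript per 1000 scaled CPM of the summed level of 16 proximal tubule genes (y axis, from 0) by group (x axis), with squares for Y-linked and circles for Xist libraries, lines for means and bars for 1 SD. Lrp2 overlaps between days, while Dab2 moves from 20.2 to 23.7 at day 0 to 37.6 to 61.3 at day 5.

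Other cell types in the kidney can hold some of these transcripts. Dab2 is also made by macrophages and other cells, and all 12 macrophage markers rose in both genotypes, their sum going from 195 to 210 scaled CPM to 986 to 1271 in wild type and from 211 to 280 to 1062 to 1458 in knockout, with no marker at 0. All 10 fibroblast and myofibroblast markers rose in wild type and 9 of 10 in knockout (sums of 472 to 583 and 2787 to 4487 in wild type, 399 to 622 and 2603 to 3960 in knockout). Their part in the Dab2 level was not tested. Clcn5 is also made by intercalated cells, of whose 10 markers 8 fell in wild type and 5 in knockout, or 5 lower and 1 higher and 2 lower and 3 higher with library size alone (TMM-scaled sums of 1056 to 1413 and 444 to 642 in wild type, 912 to 1003 and 472 to 769 in knockout). With the sex-chromosome pattern as a covariate 8 fell in wild type and 7 in knockout, and 0 rose in either. None of the 10 was at 0, and their part in the Clcn5 level was not tested. Of the 10 endothelial markers 1 rose and 1 fell in each genotype (4 and 5 were higher and none lower with library size alone). Over all tested genes 24.5% rose and 22.6% fell in wild type, and 29.4% and 25.4% in knockout. With library size alone these shares were 47.3% and 11.1%, and 55.9% and 12.0%. The counts higher of intercalated, endothelial and podocyte markers with that scaling were below these shares. Of the 8 podocyte markers 1 rose and 2 fell in each. With library size alone 2 podocyte markers rose and 2 fell in wild type, and 3 rose and 1 fell in knockout. With the sex-chromosome pattern as a covariate 1 rose and 4 fell in each.

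Across the 12 libraries the log2 levels of Lrp2 and Cubn correlated with Pearson r = 0.985, and their deviations from the group means with r = 0.958. These are descriptions over libraries that share the day and the sex-chromosome pattern. Deviations of Lrp2 correlated with those of Lrpap1 at r = 0.801, with Clcn5 at 0.244, with Dab2 at 0.190 and with Amn at -0.668. Amn was the one gene of the 6 that ran against the receptor within groups, and in each group with both patterns its Y-linked library was the highest.

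**Figure D4:**
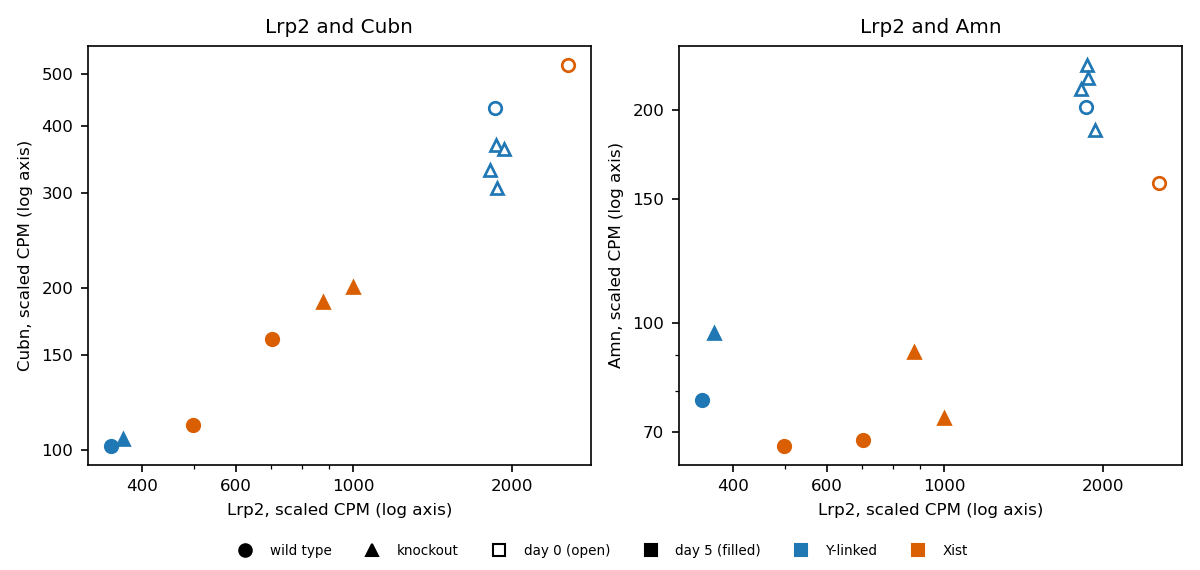
Scaled CPM of Lrp2 (x axis, log) against Cubn (left, y axis, log) and Amn (right, y axis, log) in each of the 12 libraries; open symbols are day 0, filled symbols day 5, circles wild type, triangles knockout, and colour gives the sex-chromosome pattern. Cubn rises with Lrp2 among the day 5 libraries from 102 to 201 scaled CPM, while Amn does not.

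The genes most like each member were sought among 10530 genes with a mean log2 level of at least 3, by Pearson correlation of log2 levels over the 12 libraries, which mostly share the step between days. For Lrp2 they were Slc16a4 (r = 0.996), Gatm (0.991) and Aadac (0.991), and for Cubn Slc5a6 (0.986), Atp1b1 (0.986) and Osbpl1a (0.985). For Amn they were Ndufv1 (0.996), Grhpr (0.995) and Dennd1a (0.995), for Dab2 Atp6v1e1 (0.994), Dlst (0.992) and Asl (0.992), and for Clcn5 Prkaa2 (0.991), Sepsecs (0.989) and Lpgat1 (0.989). Lrpap1 was closest to Tcn2 (0.9986), which encodes the vitamin B12 carrier transcobalamin, a ligand of megalin, then to Cltrn (0.998) and Aldh8a1 (0.998). By deviations from group means, which leave out the step between groups, Slc16a4 again stood first for Lrp2 (0.992) and Tcn2 for Lrpap1 (0.982), and Lrp2 itself was among the 3 closest to Cubn (0.958).

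The rest of the endocytic route was described by 9 lists of 120 genes, of which 119 were tested. In wild type 51 were called lower and 20 higher, and in knockout 56 and 22 (over all tested genes 22.6% lower and 24.5% higher, and 25.4% and 29.4%). Medians were -0.18 and -0.22. These counts depend on the scaling. With library size alone 25 were lower and 48 higher in wild type and 27 and 58 in knockout (medians 0.23 and 0.23), whereas the 6 members stayed lower. Over all tested genes that scaling called 11.1% lower and 47.3% higher in wild type, and 12.0% and 55.9% in knockout. The medians over all tested genes were then 0.40 and 0.45. With either scaling the list medians were thus below those of all tested genes. The same shares stand behind the library size counts of each list below. The route outside the 6 members thus changed in both directions.

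Among 12 tested relatives in the LDL receptor family, 4 fell and 2 rose in wild type, and 3 and 2 in knockout (2 and 5, and 2 and 6, with library size alone). The counts higher with library size alone were below the shares over all tested genes, 47.3% and 55.9%. Lrp1, a broad scavenger receptor made by macrophages and fibroblasts among other cells, rose by 1.96 ± 0.19 (SE, log2) in wild type kidneys and by 1.64 ± 0.16 in knockout kidneys. The macrophage and fibroblast sums given above rose with it, and their part in the Lrp1 level was not tested. Lrp8, the apolipoprotein E receptor 2, rose by 1.84 ± 0.32 and 1.12 ± 0.27. The log2 fold changes of the called lower genes were -1.02 and -0.85 for Vldlr and -0.75 and -0.63 for the Wnt co-receptor Lrp6, in wild type and knockout. All 12 relatives had values above that of Lrp2 in both genotypes.

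Among 13 adaptors and folding factors, 4 fell and 2 rose in wild type, and 4 and 1 in knockout (3 and 6, and 3 and 7, with library size alone). With library size alone 47.3% of all tested genes were higher in wild type and 55.9% in knockout, and the adaptor counts higher were near these shares. Values below are log2 fold changes in wild type and then in knockout. Pdzk1, a scaffold of the brush border, was called lower at -1.75 and -1.46, and Myo6, the motor that pulls endocytic vesicles inward, at -0.75 and -0.66. Appl1, an endosomal adaptor, rose by 0.49 and 0.43. Gipc1 was called higher in wild type (0.33, adjusted p = 0.038, and 0.0653 with RLE factors) and not in knockout (0.22). In the clathrin coat list 7 of 21 genes were higher and 4 lower in wild type, and 8 and 5 in knockout. Over all tested genes 24.5% were higher and 22.6% lower in wild type, and 29.4% and 25.4% in knockout. Hip1 rose by 1.39 and 1.53 and Epn2 by 0.69 and 0.57, whereas Epn1 stood at -0.70 and -0.77 and Pacsin2 at -0.65 and -0.56. Under library size scaling 16 of the 21 were higher in each genotype, with 1 lower in wild type and 2 in knockout, and Pacsin2 was no longer called.

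In the early endosome and recycling list 7 of 21 fell and 2 rose in wild type, and 10 and 3 in knockout (2 and 9, and 4 and 9, with library size alone). Here too the counts higher with library size alone were below the 47.3% and 55.9% of all tested genes. Rab5c, a small GTPase of early endosomes, was at -0.66 and -0.73 and Rab5b at -0.53 and -0.35, while the recycling factor Ehd4 rose by 0.94 and 0.71. Rab5b lost its call in both genotypes with library size alone, and its sign turned in knockout (0.10). Tbc1d2 was called higher at 0.53 and 0.42, and its call in knockout ended with the sex-pattern covariate (adjusted p = 0.094). Of 9 phosphoinositide genes, 2 fell and 1 rose in wild type and 2 and 2 in knockout (0 and 3, and 0 and 6, with library size alone). Ocrl, the lipid phosphatase lost in Lowe syndrome and in some Dent disease, was at 0.26 (adjusted p = 0.0581) and 0.28 (adjusted p = 0.0152). Its relative Inpp5b was at -0.67 and -0.64 and Fig4 at -0.52 and -0.61, calls that ended in both genotypes with library size alone, and Pheta2 rose by 1.14 and 1.16.

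The proton pump that acidifies endosomes, where the Clcn5 exchanger also works, had 11 of 16 genes lower and 0 higher in wild type, and 14 lower and 0 higher in knockout (7 and 2, and 6 and 5, with library size alone). Atp6v1a was called lower at -1.23 and -1.03 and Atp6v1e1, the gene closest to Dab2 above, at -1.05 and -0.84. Intercalated cells are rich in this pump, and the part of their markers, given above, in these values was not tested. Of 5 genes in the list of Clcn5 relatives, 4 were called lower in each genotype (1 lower and 1 higher with library size alone). Clcn3 stood at -0.84 and -0.88, close to Clcn5 itself (-0.77 and -0.80), Clcn6 at -0.57 and -0.48, and the subunit gene Ostm1 at -0.01 and -0.06 (not called). The Clcn6 calls ended with library size alone.

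Among 9 late endosome and lysosome genes, 6 fell and 3 rose in wild type and 5 and 3 in knockout (2 and 3, and 2 and 4, with library size alone). Lamp1, a lysosomal membrane protein, was at -0.80 and -0.52 and Lamp2 at -0.66 and -0.65, while Scarb2 rose by 0.84 and 0.82 and Npc2 by 0.40 and 0.34. The Lamp1 call in knockout ended with library size alone (-0.07).

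Genes of ligand salvage and vitamin handling had the widest range of the 9 lists, with 9 of 13 lower and 3 higher in each genotype (7 and 3, and 7 and 4, with library size alone). Folr1, the folate receptor, was called lower at -1.70 and -1.31, Mmut, the vitamin B12-dependent mutase, at -1.94 and -1.71 and Tcn2 at -2.14 and -1.90. B2m, the light chain of the neonatal Fc receptor and of class I molecules, rose by 1.18 and 1.09. The heavy chain gene of that receptor, Fcgrt, was at -0.63 and -0.60. Gc, which encodes the vitamin D carrier that megalin takes up, rose by 1.66 and 2.89. Ocrl, Ostm1, Fcgrt and Gc were named after their values were seen.

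**Figure D5:**
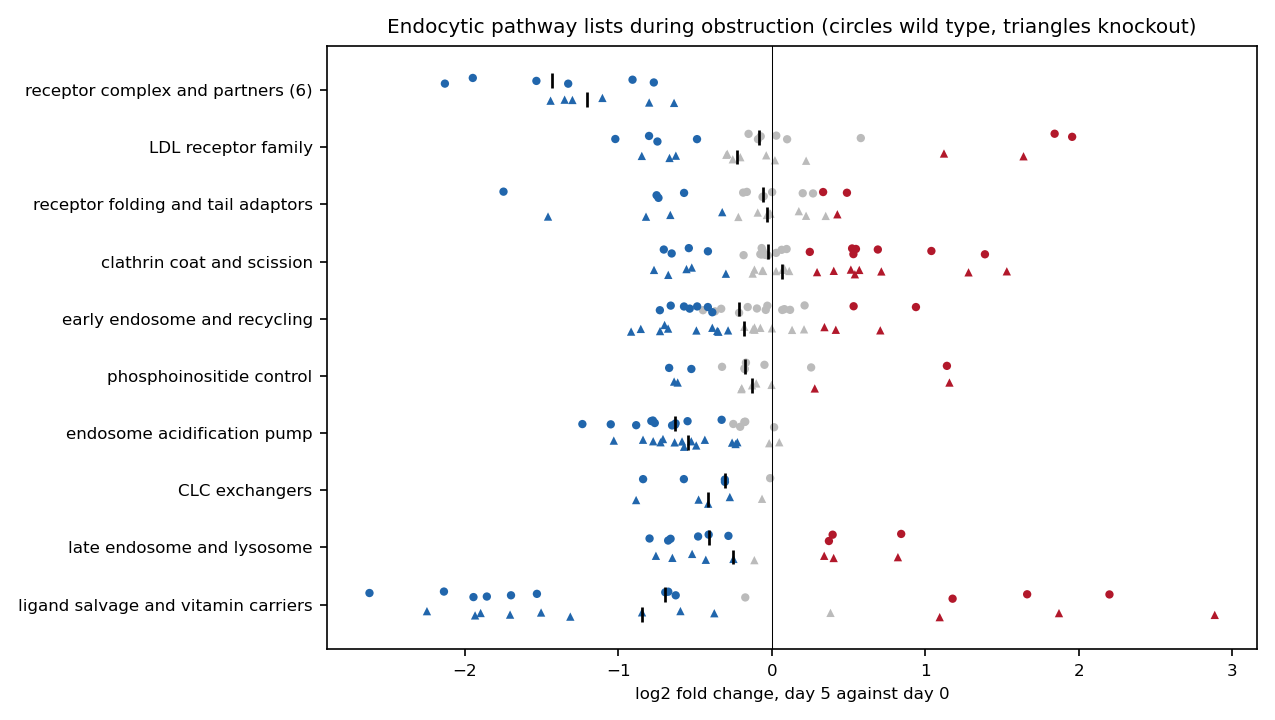
Log2 fold change at day 5 against day 0 (x axis) of the 6 members and of 9 lists of the endocytic route (y axis), 1 point per tested gene, circles for wild type and triangles for knockout; blue is called lower, red called higher, grey not called, and black ticks are list medians. The 6 members all lie at -0.64 or lower, whereas the coat and adaptor lists straddle 0.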

How the data were processed

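RNA from 12 left-kidney samples was sequenced with 50-base reads. Per the submitters' processing notes, the authors used STAR, SAMtools and HTSeq with GRCm38.p6, and whether counting used strand is not given in the sources used here. The deposited values are CPM: every column sums to 1000000, and 100% of 665652 values were whole multiples (within 0.001) of the worth of 1 read, which returned the read counts. Depth was 16567256 to 19398882 reads per library. Log2(CPM/TMM factor + 0.5) was fitted with limma 3.58.1 (trend) in R 4.3.3 for 18093 genes passing filterByExpr (minimum count 10, minimum total 15), all 4 groups together, with p-values adjusted by Benjamini-Hochberg over all tested genes and called at 0.05. The test was also run on simulated data, in which equal numbers of genes were raised and lowered and no sex-chromosome pattern was set. The simulation therefore does not bear on the scaling shift between days or on that pattern. Fold changes are on the log2(CPM + 0.5) scale.

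Alternatives were edgeR 4.0.16 and DESeq2 1.42.0 on recovered reads, 0.1 and 1 CPM added, RLE factors, library size only, no filter, CPM of 1 in 2 libraries, only the compared groups, the sex-chromosome pattern as a covariate, and each library left out. Fits within Y-linked or Xist libraries, and of the pattern term within day 5, were chosen after the data had been seen. The members and lists were chosen with earlier results of these data known, as was the pattern covariate.

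Named in the text were all members, up to 2 genes called higher and 2 lower per pathway list with the smallest adjusted p in wild type, and the 3 genes most correlated with each member. A gene that this rule picked is not reported here. Promoters are RefSeq's for GRCm38.p6, and all 6 members matched. The motifs were chosen with these sequences in view. Exon lengths and positions are from GENCODE M21. Figures were drawn with matplotlib 3.10.9.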

Additional observations from a re-analysis of the deposited data

How the results depend on the processing

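The call and direction of each member in both obstruction comparisons were kept under every alternative run: over 144 values in wild type the log2 fold changes lay between -2.42 and -0.35 with adjusted p-values up to 0.0104, and over 138 in knockout between -2.33 and -0.19 with adjusted p-values up to 0.0239. The values nearest 0 came from library size alone. Between genotypes none of 138 values at day 0, 143 at day 5 and 132 of the interaction was called, the smallest adjusted p-values being 0.133, 0.0865 (Lrpap1 with DESeq2) and 0.105. DESeq2 gave no adjusted p for Clcn5 at day 5. Leaving out 1 library moved Lrp2 between -2.38 and -1.87 in wild type and between -1.71 and -0.99 in knockout. In the fit that gave -0.99 the knockout day 5 libraries all held Xist and the day 0 libraries were all Y-linked. The Cubn pattern term was larger within day 5 (-0.63) and no longer called (adjusted p = 0.0547), with fewer libraries. Over all genes, library size alone called 2001 lower and 8560 higher in wild type and 2179 and 10114 in knockout, against 4087 and 4440 and 4589 and 5328 (81.1% and 82.3% of calls higher, against 52.1% and 53.7%). Between genotypes limma called 3, 0 and 1 genes at day 0, at day 5 and in the interaction, and DESeq2 145 lower and 225 higher, 2 and 49, and 12 and 35. Other settings gave up to 15 lower and 4 higher at day 0. The calls between genotypes rose to 217 lower and 421 higher at day 0 and 64 and 43 in the interaction without wild type day 0 replicate 1. Without knockout day 5 replicate 2 they were 22 and 13 at day 0, 8 and 15 at day 5 and 3 and 12 in the interaction, and without knockout day 5 replicate 3 they were 16 and 4 at day 0. None of these calls was a member. Fits within 1 pattern leave groups with 1 library, which is taken to vary like the others, on 2 or 3 residual degrees of freedom. No paired analysis was possible because the labels give the libraries no shared replicate numbers. Counting error was small beside the spread between libraries for Lrp2, whose day 5 genotype interval spans -0.24 to 1.17.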
